A study of Homo sapiens with 20 samples.

Results

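The 10 genes described here encode subunits of NF-kappaB (NFKB1, NFKB2, RELA and RELB), 2 inhibitors of the pathway (NFKBIA and TNFAIP3), its ligand TNF, and 3 inhibitor of apoptosis proteins, or IAPs (BIRC2, BIRC3 and XIAP). They were chosen by symbol from a table of 24196 genes, and all 10 were found. RNA-seq had been done on orthotopic tumors of OVCAR8, a human ovarian carcinoma cell line, grown in immunodeficient NSG mice. There were 4 libraries of PBS tumors and 4 of gluconate tumors, which answer whether gluconate changed expression in the tumor. The study's methods describe orthotopic tumors of luciferase-tagged OVCAR8 derivatives in the fat pad of the ovary, placed when the mice were 6 weeks old, and an efficacy study in which PBS or sodium gluconate, at 1 mg/kg, was given i.p. once a week for 35 days. The study gives the cells of the efficacy study as OVCAR8-sgNC-luc, which carry a non-targeting sgRNA and a luciferase-mCherry reporter. Its text speaks of treated OVCAR8 cells for the RNA-seq where the labels give tumors, so that the sequenced tumors came from the efficacy study is a reading of the labels. Both groups shared the cell line and the host, and NSG mice lack T, B and NK cells. The columns are lettered C and T, which the labels do not hold. They were read as PBS and gluconate, and the direction of every difference between the groups rests on that reading. The labels do not say that each library came from its own animal, so the p-values measure the spread between these libraries.

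NF-kappaB is a family of dimeric transcription factors that I-kappaB proteins hold in the cytoplasm. Ligands such as TNF act through receptor complexes of TRAF, RIPK and cellular IAP proteins on the I-kappaB kinases, and the degradation of I-kappaB lets RELA-containing dimers enter the nucleus, while a slower non-canonical branch processes NFKB2 for dimers with RELB. The factor induces genes of its own inhibitors and subunits, among them NFKBIA, TNFAIP3, BIRC3, NFKB2 and RELB, which makes their mRNA a common readout of the pathway. In ovarian carcinoma the pathway is known for its part in inflammatory signaling and in resistance to cell death.

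Expression was given as FPKM, that is fragments relative to gene length and to library size. PBS replicate 4 stood apart in depth. It held 3944893 fragments on the listed genes, against 39248707 to 46457636 in the other 7 libraries, which was 9.95 to 11.8 times fewer, and results are therefore also given without it. Of the tumor cell markers fixed for the check, the keratins of simple epithelium KRT8 and KRT18 were at 513 to 1051 FPKM and KRT7 at 124 to 393 FPKM, and PAX8, a Müllerian transcription factor, was at 32.4 to 50.7 FPKM, whereas WT1, a marker of serous ovarian carcinoma, was at 1.07 to 1.82 FPKM in 7 libraries and at 6.58 FPKM in PBS replicate 4, and MUC16, the gene of the ovarian carcinoma antigen, was at 0 in 6 of the 8 libraries and at 0.000972 and 0.00168 FPKM in the others. PTPRC and CDH5, defining markers of leukocytes and vessels, were at 0 to 0.0165 and 0 to 0.0301 FPKM. Others of their lists were higher, with CD68 at 19.7 to 28.0, ITGAM at 0.691 to 1.36 and PECAM1 at 0.0688 to 0.563 FPKM. Only human genes are listed, and mouse genes were not measured. In bulk tumors, fewer cells of a type and less RNA per cell cannot be told apart.

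The RefSeq promoter windows of the 10 genes were searched for the 10-base NF-kappaB (kappaB) consensus on both strands. The windows run from 250 bases before to 50 bases after a start, on GRCh38.p14. A window was found for 9 of the 10 genes, RELB being the exception, and 5 genes held at least 1 match. Of all 27305 genes in the promoter table, 7.09% did. Some genes have several windows, and by window it was 6 of 16, against 5.91% of all 35116 windows. The 10 genes were chosen as members of the pathway, so this contrast is not a test. The stretches below, of 30 bases each, show, for each gene, the stretch with the most matches, in capitals, and are printed 5′ to 3′ along the gene, because these genes, together with RELB, are compared with each other further on. RELA, BIRC2, XIAP and TNF held no match in these windows. A match describes the letters and not a bound site.
NFKB1: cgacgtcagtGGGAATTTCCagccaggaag
NFKB2: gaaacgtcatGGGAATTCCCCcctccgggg
NFKBIA: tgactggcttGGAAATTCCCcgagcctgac
TNFAIP3: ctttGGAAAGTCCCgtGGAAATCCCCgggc
BIRC3: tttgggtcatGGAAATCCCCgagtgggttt

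The NFKB1 stretch is at chr4:102501300-102501329 on the plus strand, with the match starting 49 bases before the annotated start. The NFKB2 stretch, where 2 overlapping matches make up the capitals, is at chr10:102394461-102394490 on the plus strand. It lies before one of the annotated starts of NFKB2. The same window held 1 further match, and a window of another start held 2, which are not shown. The NFKBIA stretch is at chr14:35404811-35404840 on the minus strand, 81 bases before the start. The TNFAIP3 stretch at chr6:137867188-137867217 on the plus strand holds 2 matches, at 67 and 55 bases before the start of its window. That start lies inside the gene as given further on, which begins upstream of it. The BIRC3 stretch is at chr11:102317275-102317304 on the plus strand, 199 bases before the start, and its window held 1 further match, not shown.

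None of the 10 genes differed between gluconate and PBS tumors beyond the spread of the libraries. All 10 had a mean FPKM of at least 0.5 and were tested among 12486 genes with limma on log2(FPKM + 0.1). Of the members, 0 had an adjusted p under 0.05 (Benjamini-Hochberg over all genes tested), beside 0% of all genes tested, and 0 had an unadjusted p under 0.05, beside 4.62% of all genes tested. The adjusted p of the members lay between 0.740 and 0.997. Their log2 fold changes, as gluconate minus PBS, ran from -0.05 for BIRC3 to 0.19 for RELA, with a median of 0.12, while the median of all genes tested was 0.07. Without PBS replicate 4, 0 members had an unadjusted p under 0.05, beside 6.18% of all genes tested. The median of the members was then 0.01, and that of all genes was -0.003. The FPKM ranges of both groups overlapped for every member, and of all genes tested 3.49% had groups of 4 that did not overlap. The exact permutation test over the 70 arrangements of the 8 libraries, whose smallest possible p is 0.0286, gave p from 0.229 to 1.00 for single members.

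**Figure D1:**
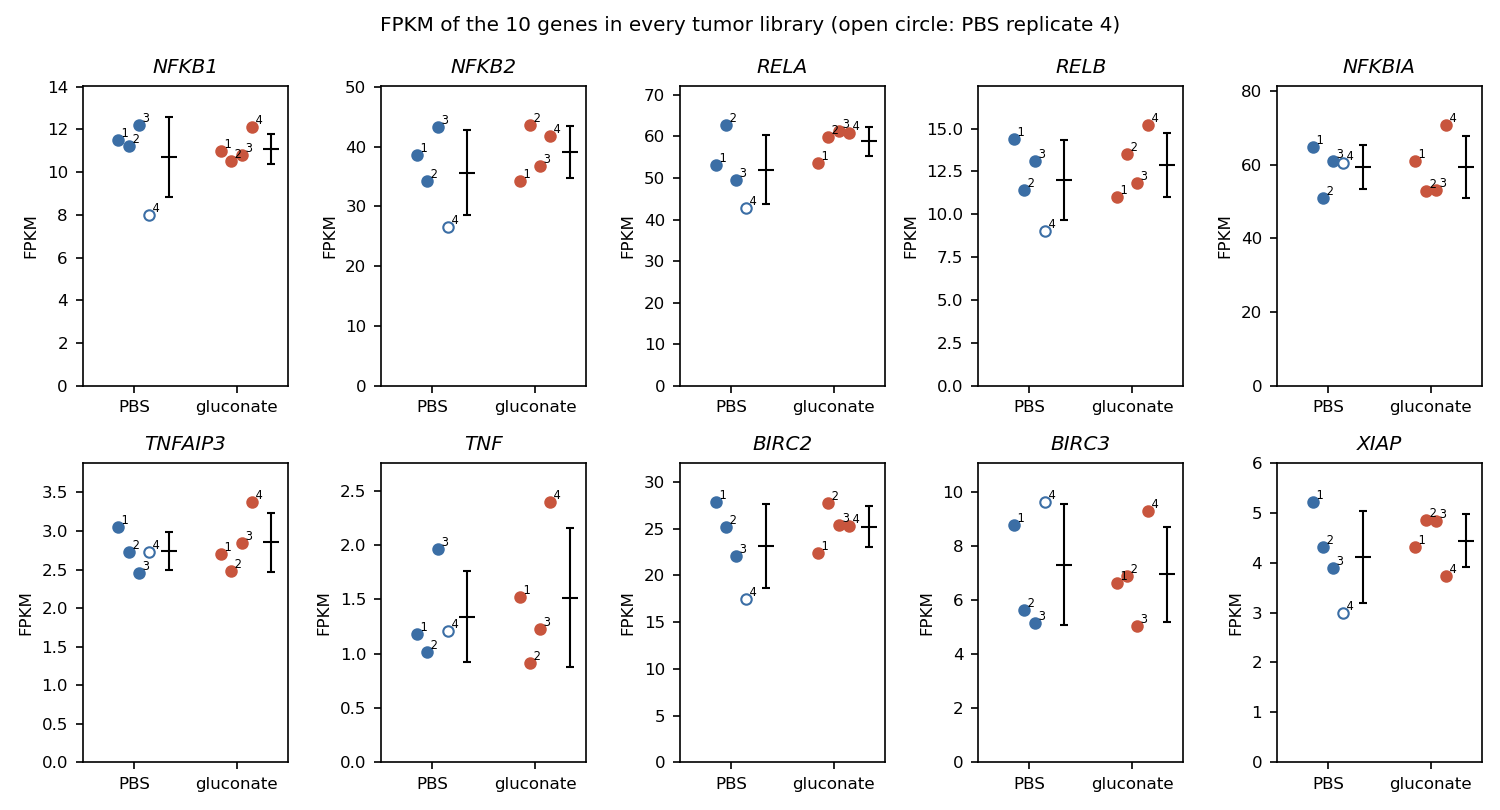
FPKM (y axis, from 0) of each of the 10 genes in the 4 PBS (blue) and 4 gluconate (red) tumor libraries, with the replicate number beside each point and the mean ± SD (n = 4) in black. The groups overlap in every panel, and PBS replicate 4 (open circle) is the lowest of the 8 libraries for 6 genes and the highest for BIRC3.

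TNF, the ligand, was the lowest of the 10 genes. PBS replicates 1 to 4 had 1.18, 1.02, 1.96 and 1.21 FPKM, and gluconate replicates 1 to 4 had 1.52, 0.919, 1.23 and 2.40 FPKM. Gluconate replicate 4 and PBS replicate 3 were thus the high libraries, and each group held values near 1 FPKM. The 1.21 FPKM of PBS replicate 4 rested on 8 fragments, with a 95% Poisson interval of 0.521 to 2.38 FPKM that covers counting error only. Its mean was 1.34 ± 0.418 FPKM (SD, n = 4) under PBS and 1.52 ± 0.637 FPKM (SD, n = 4) under gluconate. On the log2 scale the difference was 0.13 with a 95% interval of -0.53 to 0.79 (limma, adjusted p = 0.881). TNF also had the widest spread of the members, with a residual SD of 0.47 on the log2 scale, where the median gene had 0.21. TNF lies at chr6:31575565-31578336.

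Among the 4 subunit genes of the members, RELA was the most abundant and RELB and NFKB1 were the least. The remaining subunit gene, REL, is on a pathway list and was lower still, at 0.488 to 1.39 FPKM over the 8 libraries. RELA, which carries the transactivation domain of the canonical dimer, had 53.0, 62.7, 49.5 and 42.7 FPKM in PBS replicates 1 to 4 and 53.7, 59.9, 61.2 and 60.7 FPKM in gluconate replicates 1 to 4. The gluconate tumors lay close together, and only PBS replicate 2 exceeded all of them. RELA had the lowest p of the members. Its log2 fold change was 0.19 with a standard error of 0.11 (limma, unadjusted p = 0.120, adjusted p = 0.740) and 0.10 without PBS replicate 4 (unadjusted p = 0.274). Leaving out PBS replicate 2 instead gave 0.29 (unadjusted p = 0.0160), the 1 limma fit in which a member had an unadjusted p under 0.05, as did 6.99% of all genes tested there. The exact permutation test with all libraries gave p = 0.229. RELA lies at chr11:65653601-65663857.

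NFKB1, the gene of the precursor of the subunit that pairs with RELA, was the steadiest member once PBS replicate 4 was left out. PBS replicates 1 to 4 had 11.5, 11.2, 12.2 and 7.99 FPKM of it, and gluconate replicates 1 to 4 had 11.0, 10.5, 10.8 and 12.1 FPKM. Over the 7 deeper libraries the highest value was 1.16 times the lowest, and the residual SD was 0.08 on the log2 scale, beside 0.13 for the median gene. The log2 fold change was 0.07 with all libraries and -0.07 (95% interval -0.23 to 0.10) without PBS replicate 4, so its direction turned on that library. NFKB1 lies at chr4:102501359-102617302.

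NFKB2, the precursor of the non-canonical branch, had 38.6, 34.2, 43.3 and 26.6 FPKM in PBS replicates 1 to 4. In gluconate replicates 1 to 4 it had 34.2, 43.6, 36.7 and 41.7 FPKM. Both groups spanned nearly the same range apart from PBS replicate 4. Its log2 fold change was 0.15 (standard error 0.15) with all libraries and 0.01 (standard error 0.11) without it. RELB, the partner of processed NFKB2, had 14.4, 11.4, 13.1 and 9.01 FPKM in PBS replicates 1 to 4 and 11.0, 13.5, 11.8 and 15.2 FPKM in gluconate replicates 1 to 4. Its lowest value was again in PBS replicate 4, and its highest in gluconate replicate 4. The log2 fold change of RELB was 0.11 (standard error 0.16) with all libraries and -0.02 (standard error 0.12) without PBS replicate 4. NFKB2 lies at chr10:102394110-102402529 and RELB at chr19:45001464-45038192.

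Of the inhibitors, NFKBIA was abundant and TNFAIP3 was low, and neither was shifted by PBS replicate 4. NFKBIA encodes I-kappaB-alpha, the inhibitor that NF-kappaB induces to end its own activity. In PBS replicates 1 to 4 it had 64.8, 50.9, 60.9 and 60.5 FPKM, and in gluconate replicates 1 to 4 it had 61.0, 52.9, 53.2 and 70.7 FPKM. The group means were nearly the same, at 59.3 ± 5.91 FPKM (SD, n = 4) and 59.4 ± 8.40 FPKM (SD, n = 4). The ratio of gluconate to PBS on the scale of log2(FPKM + 0.1) was 0.999-fold, with a 95% interval of 0.838-fold to 1.19-fold (limma, adjusted p = 0.997). NFKBIA lies at chr14:35401513-35404749.

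TNFAIP3 encodes A20, a ubiquitin-editing enzyme that shuts off signaling upstream of the I-kappaB kinases. It had 3.05, 2.73, 2.45 and 2.73 FPKM in PBS replicates 1 to 4 and 2.70, 2.48, 2.85 and 3.38 FPKM in gluconate replicates 1 to 4. Gluconate replicate 4 was the highest of the 8 libraries, as it was for NFKBIA. The log2 fold change was 0.05 with all libraries (95% interval -0.24 to 0.35) and 0.05 without PBS replicate 4 (95% interval -0.23 to 0.33). TNFAIP3 lies at chr6:137866349-137883312.

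The IAP genes differed among themselves in level and in how PBS replicate 4 stood to the rest. BIRC2 and BIRC3 encode the cellular IAPs, ubiquitin ligases of the TNF receptor complex that also restrain the non-canonical branch, and they are neighbors on chromosome 11, at chr11:102347214-102378670 and chr11:102317484-102339403. BIRC2 had 27.9, 25.2, 22.1 and 17.5 FPKM in PBS replicates 1 to 4 and 22.4, 27.8, 25.4 and 25.3 FPKM in gluconate replicates 1 to 4. BIRC3 had 8.78, 5.63, 5.15 and 9.63 FPKM in PBS replicates 1 to 4 and 6.61, 6.87, 5.02 and 9.28 FPKM in gluconate replicates 1 to 4. PBS replicate 4 was thus the lowest library for BIRC2 and the highest for BIRC3. Its BIRC3 value rested on 266 fragments, with a 95% Poisson interval of 8.51 to 10.9 FPKM that covers the values of PBS replicate 1 and gluconate replicate 4.

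BIRC3 varied most after TNF, with 1.85 times as much in the highest as in the lowest of the 7 deeper libraries. The high libraries, PBS replicates 1 and 4 and gluconate replicate 4, came from both groups. The log2 fold change of BIRC3 was -0.05 (standard error 0.24) with all libraries and 0.10 (standard error 0.22) without PBS replicate 4. That of BIRC2 was 0.14 (standard error 0.14) and 0.01 (standard error 0.10). XIAP, which binds and blocks caspases directly, had 5.22, 4.31, 3.90 and 3.00 FPKM in PBS replicates 1 to 4 and 4.31, 4.85, 4.84 and 3.74 FPKM in gluconate replicates 1 to 4. Its log2 fold change was 0.13 (standard error 0.17) with all libraries and -0.01 (standard error 0.13) without PBS replicate 4. XIAP lies at chrX:123859708-123913972.

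**Figure D2:**
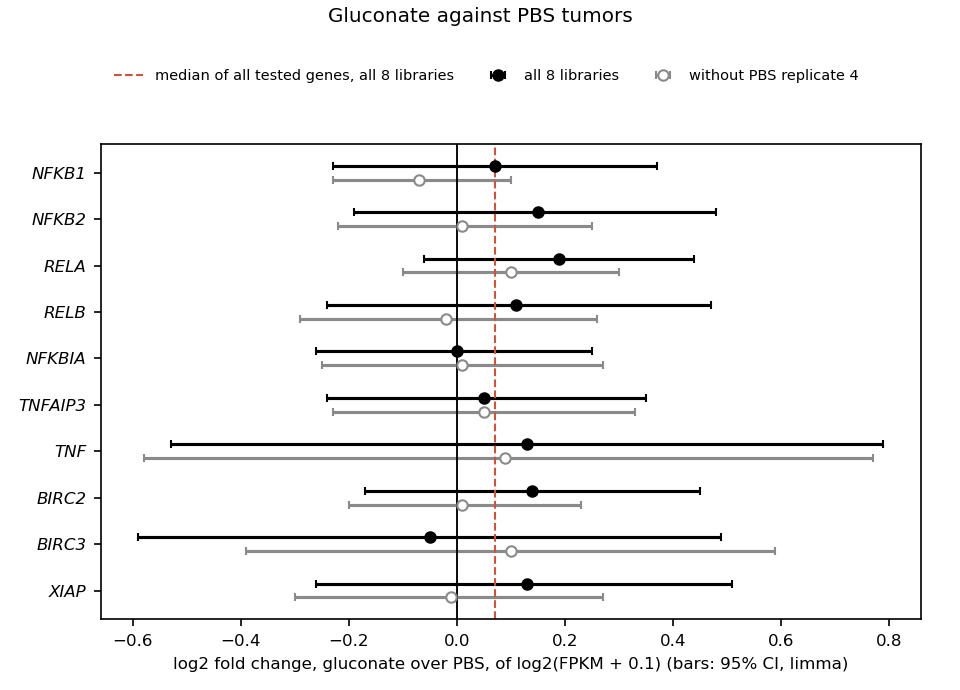
Log2 fold change of gluconate over PBS tumors on log2(FPKM + 0.1) (x axis) for each gene, with 95% confidence intervals from limma, using all 8 libraries (black) or leaving out PBS replicate 4 (grey), and with the median of all genes tested, 0.07, as a dashed line. Every interval includes 0, and without PBS replicate 4 the estimates lie between -0.07 and 0.10.

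PBS replicate 4 was below the other 7 libraries for 6 members (NFKB1, NFKB2, RELA, RELB, BIRC2 and XIAP), by 0.42 to 0.55 on the log2 scale from their mean, and above them for BIRC3. Over all genes tested it was below the others for 58.0% and above them for 13.7%, so these shares of the members are near those of the whole table. With all libraries, 8 members had a positive log2 fold change, and 7 had one without PBS replicate 4. Scaling the libraries by median ratios instead brought the median of all genes to 0.003 and left 6 members positive and 4 negative.

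The order of the levels was nearly the same in every library. By mean FPKM, a level per length, it ran NFKBIA (59.4), RELA (55.4), NFKB2 (37.4), BIRC2 (24.2), RELB (12.4), NFKB1 (10.9), BIRC3 (7.12), XIAP (4.27), TNFAIP3 (2.80) and TNF (1.43). Of the 9 neighboring pairs in this order, 7 kept their order in all 8 libraries. NFKBIA exceeded RELA in 5 of the 8 libraries, so these neighbors did not differ beyond their spread. NFKB1 exceeded BIRC3 in 7 of the 8, PBS replicate 4 being the exception. NFKBIA was more abundant than all but 7.97% of the genes tested, whereas 83.2% of the genes tested were above TNF.

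Ratios within a library, which do not depend on its scaling, gave no difference between the groups either. The ratio of the inhibitor to its target, NFKBIA to RELA, was 1.22, 0.812, 1.23 and 1.42 in PBS replicates 1 to 4 and 1.14, 0.882, 0.869 and 1.16 in gluconate replicates 1 to 4. Values above and below 1 occurred in both groups, and the difference in mean log2 ratio was -0.19 (two-sided exact permutation test, p = 0.400). It was -0.09 without PBS replicate 4 (exact permutation test, p = 0.743) and -0.36 without PBS replicate 2, the 1 PBS library below 1 (exact permutation test, p = 0.0571, the smallest that 3 against 4 libraries can give). NFKB2 to NFKB1 was the steadiest of the 4 ratios, from 3.05 to 4.14 over all 8 libraries, with a difference of 0.08 (exact permutation test, p = 0.514). RELB to RELA ran from 0.182 to 0.272 and differed by -0.08 (exact permutation test, p = 0.657). BIRC3 to BIRC2 was 0.198 to 0.367 in the 7 deeper libraries and 0.550 in PBS replicate 4. Its difference was -0.19 with all libraries (exact permutation test, p = 0.629) and 0.08 without that library (exact permutation test, p = 0.800). All 4 ratios had a Benjamini-Hochberg adjusted p of 0.657 over the 4 exact permutation tests. With 3 against 4 libraries, the smallest p such a test can give is 0.0571, so it cannot pass 0.05.

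A set of 6 members known as NF-kappaB-induced genes was then compared over the 7 libraries other than PBS replicate 4. Pearson's r was above 0 for 14 of the 15 pairs among NFKB1, NFKB2, RELB, NFKBIA, TNFAIP3 and BIRC3, with a median of 0.52. Over all pairs of tested genes, 52.2% had an r above 0 and the median was 0.03. The 15 pairs share 6 genes and 7 libraries and are not independent, so their count above 0 is not a test. None of the 15 pairs passed, with 0 at an unadjusted p under 0.05 and a smallest adjusted p of 0.254 (exact permutation test, Benjamini-Hochberg over 15 pairs). The closest pair was NFKB2 with RELB, both of the non-canonical branch, at r = 0.76 (exact permutation p = 0.0587) and rho = 0.71 (exact permutation p = 0.0881). It kept r = 0.71 without the 2 libraries farthest from the median of NFKB2. NFKBIA with BIRC3 had r = 0.72 (exact permutation p = 0.0784) and rho = 0.61 (exact permutation p = 0.167), with r = 0.49 without the 2 farthest libraries. NFKB1 with NFKBIA had r = 0.72 and rho = 0.54 (exact permutation p = 0.0784 and 0.236), with r = 0.56 without the 2 farthest. TNFAIP3 with BIRC3 had r = 0.70 and rho = 0.50 (exact permutation p = 0.0847 and 0.267), but r was -0.28 without PBS replicate 1 and gluconate replicate 4, so this relation rests on those libraries. RELB with BIRC3 had r = 0.71 (exact permutation p = 0.0825) and rho = 0.68 (exact permutation p = 0.110), with r = 0.78 without the 2 farthest. With PBS replicate 4 kept in, r was 0.90 for NFKB2 with RELB, 0.66 for NFKBIA with BIRC3, 0.19 for NFKB1 with NFKBIA, 0.56 for TNFAIP3 with BIRC3 and 0.04 for RELB with BIRC3, so the values for NFKB1 with NFKBIA and RELB with BIRC3 hold for the 7 deeper libraries alone. The median r of the 15 pairs was 0.56 with the group means removed, 0.45 without the 2 farthest libraries of each pair (13 pairs above 0) and 0.37 over all 8 libraries. TNF, also known as induced by NF-kappaB, was not in the set. With it as a further gene, a choice made after seeing the data, r was above 0 for 20 of 21 pairs and the median was 0.49. Its pairs with NFKB1 and NFKBIA then had an unadjusted p under 0.05, and the smallest adjusted p was 0.254 (exact permutation test, Benjamini-Hochberg over 21 pairs).

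The 6 genes stood on the same side of their means in some libraries. In gluconate replicate 4 all 6 genes were above their own mean of the 7 libraries, by 0.10 to 0.49 on the log2 scale with a median of 0.25. In PBS replicate 2 all 6 were below it, with a median of -0.17. PBS replicate 1 was above it for 5 of the 6 genes, with a median of 0.13. Of all 10 members, gluconate replicate 4 held the highest value of the 7 libraries for 5 (RELB, NFKBIA, TNFAIP3, TNF and BIRC3), beside 16.6% of all genes tested. These libraries were picked out after their values were seen. The share of all genes tested above their mean in each library is not given here, so the counts of the 6 genes have no such share beside them.

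**Figure D3:**
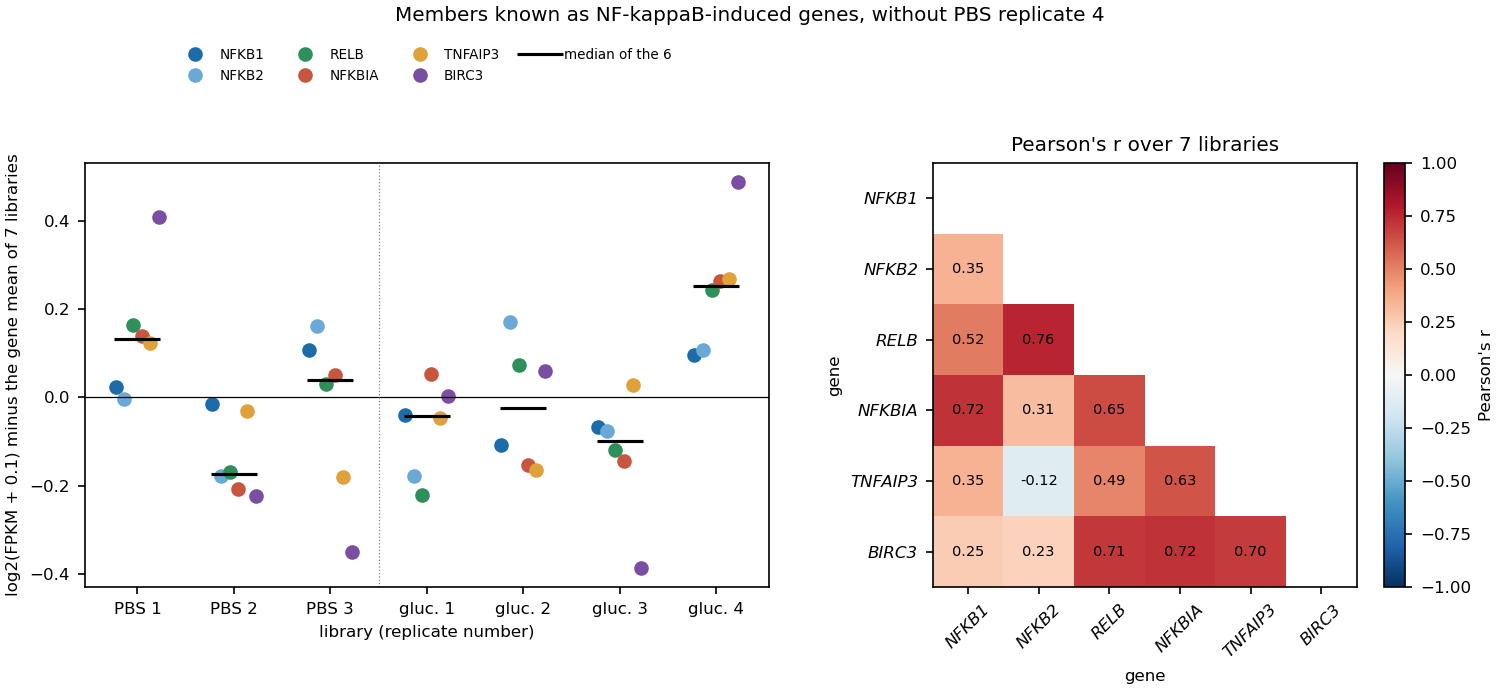
Left, level of 6 NF-kappaB-induced members in each of the 7 libraries other than PBS replicate 4, as log2(FPKM + 0.1) minus the mean of the gene (y axis), with the median of the 6 genes as a black bar. Right, Pearson's r of each pair over these 7 libraries. The medians run from -0.17 in PBS replicate 2 to 0.25 in gluconate replicate 4, and r runs from -0.12 to 0.76.

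The wider pathway was read from 6 lists of 102 genes, of which 99 were in the table and 83 were tested. Among these, 2 genes were higher and 1 was lower in gluconate tumors at an unadjusted p under 0.05, or 3.61% beside the 4.62% of all genes, and 0 passed after adjustment. Their median log2 fold change was 0.06, next to 0.07 for all genes tested. Without PBS replicate 4 the balance was 1 higher and 3 lower, or 4.82% beside 6.18% of all genes. The 3 genes with all libraries were IL6, SOD2 and BCL10, and all had an adjusted p of 0.740 (limma, Benjamini-Hochberg over all genes tested). Leaving out 1 library at a time gave 1 to 5 such list genes, with 1 without PBS replicate 3 or gluconate replicate 2 and 5 without PBS replicate 1. The 5 were 6.02% of the list genes, beside 9.72% of all genes tested in that fit, and the 1 was 1.20%, beside 4.04% and 3.16%.

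The list of known NF-kappaB target genes held 2 of them, both higher in gluconate tumors and neither past the adjusted threshold, and its 18 tested genes had a median log2 fold change of 0.01. IL6, an inflammatory cytokine, was at 12.1, 8.74, 5.92 and 5.37 FPKM in PBS replicates 1 to 4. In gluconate replicates 1 to 4 it was at 9.32, 12.0, 9.99 and 16.4 FPKM. PBS replicate 1 lay above 3 of the 4 gluconate tumors. The log2 fold change was 0.60 (standard error 0.27, limma unadjusted p = 0.0480), and 0.44 without PBS replicate 4 (limma unadjusted p = 0.102). SOD2, the mitochondrial superoxide dismutase, was at 10.5, 6.14, 6.71 and 6.66 FPKM in PBS replicates 1 to 4 and at 10.1, 8.55, 9.93 and 14.9 FPKM in gluconate replicates 1 to 4. Again PBS replicate 1 was within the gluconate range and gluconate replicate 4 was the highest. Its log2 fold change was 0.53 (standard error 0.21, limma unadjusted p = 0.0295) with all libraries and 0.48 (limma unadjusted p = 0.0470) without PBS replicate 4. IER3, an early response gene, had a log2 fold change of 0.47 (limma unadjusted p = 0.0556), and of 0.25 (limma unadjusted p = 0.0812) without PBS replicate 4.

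The most abundant target genes, ICAM1 and PLAU, had log2 fold changes of 0.01 and -0.04, and of 0.01 and -0.39 without PBS replicate 4. ICAM1, an adhesion molecule, was at 67.0 ± 5.00 FPKM (SD, n = 4) under PBS and 68.1 ± 13.5 FPKM (SD, n = 4) under gluconate, with 87.7 FPKM in gluconate replicate 4. PLAU, the urokinase gene, reached 172 FPKM in PBS replicate 3, while the other libraries had 33.4 to 71.3 FPKM. The target genes split by library, since PBS replicate 3 held the highest value of the 7 deeper libraries for 8 of the 18, among them the chemokine genes CXCL1, CXCL2, CXCL3, CXCL8 and CCL20, and gluconate replicate 4 for 6 others, among them IL6, ICAM1, SOD2 and IRF1. Over all genes tested, PBS replicate 3 held the highest value for 21.4% and gluconate replicate 4 for 16.6%. These chemokine genes and IRF1 were named after their values were seen. LCN2, the gene of lipocalin 2, is on the same list but had a mean FPKM under 0.5 and was not among the tested genes. It had 0.0802, 0.105, 0.122 and 0 FPKM in PBS replicates 1 to 4 and 0.605, 0.314, 0.310 and 0.485 FPKM in gluconate replicates 1 to 4. The groups did not overlap, at low levels in every library, and the share of such genes under the filter is not given here. With no filter on low values its log2 fold change was 1.60 over all 8 libraries (limma unadjusted p = 0.000771, adjusted p = 0.802). The fit without PBS replicate 4, the shallow library with 0 FPKM, kept the filter and gives no value for it. LCN2 was likewise named after its values were seen.

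Of 17 tested genes for kinases that act on I-kappaB and their adaptors, 1 was lower at an unadjusted p under 0.05 and the median log2 fold change was 0.04. BCL10, the adaptor of the MALT1 complex, was at 9.39, 11.6, 11.2 and 11.0 FPKM in PBS replicates 1 to 4. In gluconate replicates 1 to 4 it was at 8.37, 8.78, 9.59 and 9.58 FPKM. The lowest PBS tumor lay within the gluconate range. Its log2 fold change was -0.24 (standard error 0.10, limma unadjusted p = 0.0304) and -0.23 without PBS replicate 4 (limma unadjusted p = 0.0312). IRAK1 and TAB2, a kinase and an adaptor downstream of interleukin and Toll-like receptors and the most abundant of this list, had log2 fold changes of -0.10 each, and of -0.14 and -0.02 without PBS replicate 4. MAP3K14, the kinase of the non-canonical branch, had -0.14 with all libraries and -0.24 without that one (limma unadjusted p = 0.0467, adjusted p = 0.802), and was named after its values were seen. MYD88, an adaptor of these receptors, had 0.744 FPKM in PBS replicate 4, while the others had 3.35 to 4.67 FPKM, and its log2 fold change was 0.63 with that library and 0.08 without it. TAB1, with 0.21, likewise had 0.01 without it.

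The other lists held no gene at an unadjusted p under 0.05 in the fit of all 8 libraries. Among the 7 other subunit and I-kappaB genes, the median log2 fold change was -0.08. NFKBIB, the gene of I-kappaB-beta, was at 13.1 ± 1.09 FPKM (SD, n = 4) under PBS and 11.6 ± 0.535 FPKM (SD, n = 4) under gluconate, for a log2 fold change of -0.18 (limma unadjusted p = 0.0657). Without PBS replicate 4 it was -0.19, with an unadjusted p of 0.0374 and an adjusted p of 0.802. NFKBIE, another I-kappaB gene, had -0.08 (-0.13 without PBS replicate 4), NFKBID 0.49 (0.07 without PBS replicate 4) and NKRF, a repressor, -0.09. Among the 18 TRAF and ubiquitin regulators the median was 0.05. ITCH, FBXW11 and TRAF5 had the lowest p, with -0.10, -0.09 and 0.34 as log2 fold changes and -0.10, -0.07 and 0.20 without PBS replicate 4. The abundant SHARPIN and TAX1BP1, of the linear ubiquitin and A20 complexes, had 0.17 and -0.05, and 0.03 and -0.02 without it.

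The 11 tested TNF superfamily ligands and receptors had a median log2 fold change of 0.14, and of 0.09 without PBS replicate 4. TNFRSF12A, the receptor of TWEAK, was the most abundant, at 294 ± 15.0 FPKM (SD, n = 4) under PBS and 316 ± 31.9 FPKM (SD, n = 4) under gluconate. TNFRSF1A, the main receptor of TNF, was at 46.7 ± 7.94 and 52.1 ± 5.30 FPKM (SD, n = 4 each), a log2 fold change of 0.17. CD40, TNFSF10 (the gene of TRAIL) and LTB had log2 fold changes of 0.27, 0.71 and 0.42, with limma unadjusted p of 0.183, 0.192 and 0.212. Without PBS replicate 4 they had 0.10, 0.36 and 0.50. The 12 other IAP genes, antagonists and caspases had a median of 0.11, and of 0.01 without PBS replicate 4. BIRC5 (survivin), the most abundant, was at 53.1 FPKM in both groups. FADD and CASP8, which act in death receptor signaling, had log2 fold changes of 0.20 and 0.19 (limma unadjusted p = 0.0801 and 0.234), and of 0.19 and 0.05 without PBS replicate 4. HTRA2, an IAP antagonist, had 0.04.

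**Figure D4:**
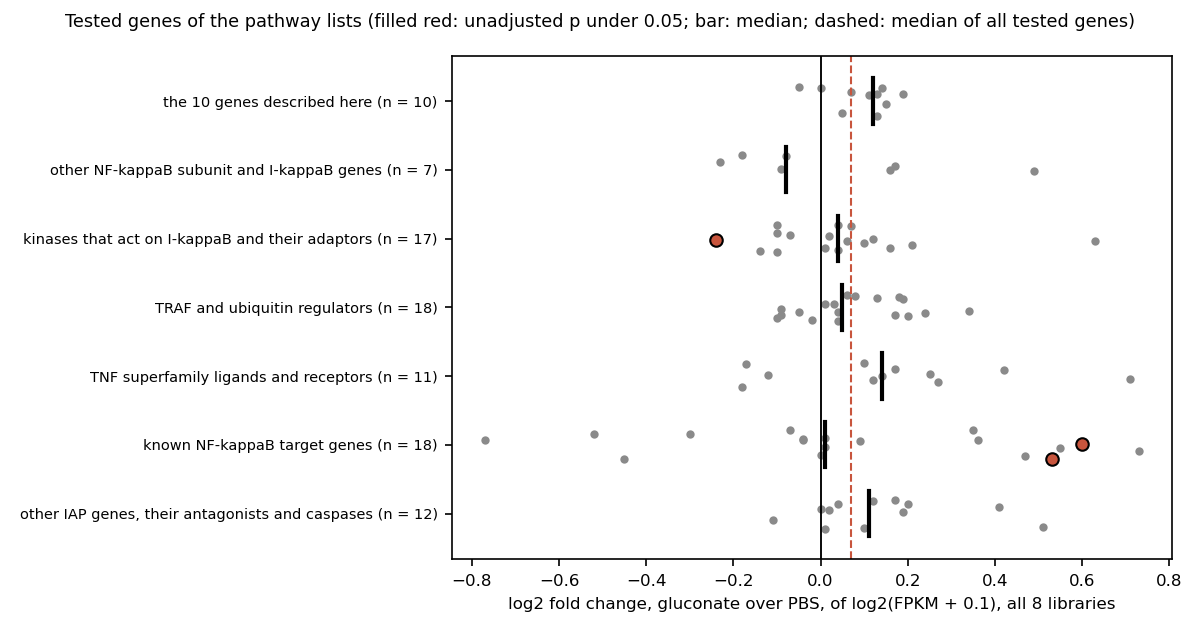
Log2 fold change of gluconate over PBS tumors on log2(FPKM + 0.1), all 8 libraries (x axis), for each tested gene of the 10 members and the 6 pathway lists (rows, points spread vertically for legibility), with the median of each list as a black bar and that of all genes tested, 0.07, as a dashed line. Filled red points are the 3 genes at an unadjusted p under 0.05, BCL10 to the left and SOD2 and IL6 to the right, and list medians lie between -0.08 and 0.14.

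Human genes known as markers of other cell types were read beside these values. The injected cells were all of the human line OVCAR8, so these values do not measure stroma, leukocytes or vessels of the host. Whether mouse reads were counted on human genes was not tested. The summed FPKM of the 6 fibroblast markers was 206 to 431 in PBS and 386 to 520 in gluconate tumors, and the lowest sum was in PBS replicate 4, against 346 to 520 in the other 7. COL1A1, at 41.4 to 182 FPKM, and SPARC, at 161 to 338 FPKM, made up most of the sum. LUM was at 1.70 to 5.18, PDGFRB at 1.28 to 3.41, COL3A1 at 0.230 to 2.25 and DCN at 0.00306 to 0.0388 FPKM. SPARC had a log2 fold change of 0.45 (limma unadjusted p = 0.0193, adjusted p = 0.740), and of 0.33 (limma unadjusted p = 0.0365) without PBS replicate 4. For the 7 myeloid markers in the table the sums were 25.9 to 29.0 and 20.8 to 28.0 FPKM, nearly all of it CD68, and 5 of them were under 0.1 FPKM on average. The 5 endothelial markers summed to 0.257 to 0.707 FPKM. The 7 epithelial markers summed to 1679 to 2297 FPKM in PBS and 1567 to 2009 FPKM in gluconate tumors. KRT7 had a log2 fold change of 0.73 (limma unadjusted p = 0.0201, adjusted p = 0.740), and of 0.48 (limma unadjusted p = 0.0269) without PBS replicate 4, while KRT8 and KRT18 had -0.20 and -0.33 with all libraries. The part of cell composition in the values of the 10 genes was not tested.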

How the data were processed

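The authors deposited FPKM values of 24196 genes for 8 tumor libraries, from paired-end, polyA-selected RNA-seq. The submitters' processing notes name GRCh38, while the aligner, the counter and the annotation are not given in the sources used here. The columns carry the letters C and T, read as PBS and gluconate from the ratio on the axis of the study's plot and the number of libraries. The 12 other samples were not analysed here. Depth came from whole fragments recovered from the FPKM steps (all 24196 genes, tolerance 0.001).

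The fit with limma 3.58.1 (R 4.3.3, eBayes with a trend, no block) took log2(FPKM + 0.1) of all genes whose mean FPKM reached 0.5. This scale understates changes of low genes. Single values were compared with exact permutation tests (scipy), two-sided. The alternatives were pseudocounts of 1 and 0.01, filters, scalings, array weights, voom, leaving out single libraries, and a replicate block. All 10 members are named, and from each list the 3 genes with the lowest unadjusted p, any other under 0.05, and the 2 most abundant. The members and lists were chosen with earlier results of these data known. CD40LG, CCL2, RIPK3 and AIF1 were not analysed here. The values of 1 gene picked by the rule for named genes are not reported here.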

Additional observations from a re-analysis of the deposited data

How the results depend on the processing

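In all 19 alternative settings 0 genes had an adjusted p under 0.05 in limma, the smallest being 0.252. Members at an unadjusted p under 0.05 numbered 0 to 1 when single libraries were left out, the 1 being RELA without PBS replicate 2, and 0 in the other settings. The 577 genes at an unadjusted p under 0.05 became 267 (without gluconate replicate 4) to 1214 (without PBS replicate 1), 873 without PBS replicate 2, 289 without gluconate replicate 3 and 1028 with no filter on low values. The 3 list genes became 1 to 5 when single libraries were left out and 5 with no filter, which tested more genes and added LCN2, TNFSF14 and NFKBIB but not IL6.

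Members changed direction in some settings, among them BIRC2, TNF and XIAP, which had 0.14, 0.13 and 0.13 in the main fit. With median-ratio scaling the log2 fold change of NFKB1 was -0.00067 and that of TNFAIP3 -0.01. With quantile normalization TNFAIP3 was at -0.03. With array weights NFKB1, RELB and BIRC2 were at -0.05, -0.03 and -0.01, and with voom on recovered fragments NFKB1, NFKBIA and BIRC3 were at -0.02, 0.01 and 0.05. With median-ratio scaling and without PBS replicate 4, a setting chosen after seeing the data, NFKB1, RELB and XIAP were at -0.06, -0.01 and -0.01 and NFKBIA and BIRC3 at 0.01 and 0.10. Leaving out single libraries gave -0.07 to 0.13 for NFKB1, -0.02 to 0.21 for RELB, -0.09 to 0.05 for NFKBIA, -0.03 to 0.11 for TNFAIP3, -0.11 to 0.32 for TNF, -0.20 to 0.10 for BIRC3 and -0.01 to 0.25 for XIAP, while NFKB2 (0.01 to 0.25), RELA (0.10 to 0.29) and BIRC2 (0.01 to 0.23) stayed positive. The cause of these changes was not tested. No exact permutation test of a member passed 0.05 with 4 against 4 libraries, and with 1 left out it could not. The differences in log2 ratio ran from -0.36 to -0.09 for NFKBIA to RELA, -0.19 to 0.0022 for RELB to RELA, -0.00064 to 0.14 for NFKB2 to NFKB1 and -0.35 to 0.08 for BIRC3 to BIRC2.

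Among correlations, 3 pairs passed an unadjusted p of 0.05 over all 8 libraries (NFKB1 with NFKB2 at r = 0.82, NFKB1 with RELB at 0.82 and NFKB2 with RELB at 0.90) and 1 with the group means removed (NFKB1 with NFKBIA at 0.82), and 2 with TNF as a further gene, a setting chosen after seeing the data (NFKB1 and NFKBIA with TNF at 0.81 and 0.79). Over 8 libraries NFKB1 and NFKB2 with BIRC3 were at -0.39 and -0.29. Without the 2 farthest libraries NFKB1 with NFKB2 was at -0.47, NFKB2 with TNFAIP3 at 0.02 and TNFAIP3 with BIRC3 at -0.28.

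A replicate block gave 470 genes and 0 members at an unadjusted p under 0.05. The labels do not say that the replicate numbers pair the samples. The deviations of same-numbered libraries correlated at -0.18, 0.08, 0.17 and -0.06. No values for differently numbered libraries stand beside these, so they cannot decide whether the numbers mark pairs. Depth limits PBS replicate 4 most, with 8 fragments for TNF there and 81 to 430 for the other members.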
